A study of Mus musculus with 21 samples.

Results

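The genes described here encode enzymes that add or remove methyl groups on lysine 36 of histone H3 (H3K36). They comprise 5 methyltransferase genes (Setd2, Nsd1, Nsd2, Nsd3, Ash1l) and 5 demethylase genes (Kdm2a, Kdm2b, Kdm4a, Kdm4b, Kdm4c). The genes were chosen by name for the known activity of their products and are 10 of 19304 protein-coding mouse genes of at least 2 kb. What was measured on each is its cover, the percent of the annotated gene body (exons and introns, from one end to the other) that lies inside called H3K36me3 peaks. All 10 had at least 8.40% cover in every wild-type library, so all passed the filter used for testing, a mean cover of at least 5% over the 10 wild-type libraries.

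H3K36 can carry 1, 2 or 3 methyl groups, and the trimethylated form, H3K36me3, lies over the bodies of transcribed genes. SETD2 travels with elongating RNA polymerase II and is the enzyme known for making H3K36me3 in mammalian cells. NSD1, NSD2 and NSD3 make the lower methylation states, and ASH1L does so near the starts of a smaller number of genes. KDM2A and KDM2B bind unmethylated CG-rich DNA through a CXXC domain and remove the lower states, whereas KDM4A, KDM4B and KDM4C remove methyl groups from trimethylated H3K36 and H3K9. All methyltransferases use S-adenosylmethionine, which cells make from methionine. The genes for these enzymes are themselves transcribed, so their own bodies can carry the mark that the enzymes write or erase.

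The study profiled H3K36me3 by chromatin immunoprecipitation and sequencing in C2C12, an established mouse myoblast line that fuses into myotubes in culture. Its question, as its title and design give it, is how methionine supply bears on H3K36me3 during differentiation. Sampling covered day 0 and then days 1 and 5, the later days each with control medium and with methionine-restricted medium, which gives 5 conditions. Each condition had 2 replicate libraries of wild-type (WT) cells and 1 library from each of 2 Setd2 knockout (KO) lines, 20 libraries in all. All groups are the same cell line and all chromatin received a Drosophila spike-in, per the labels. Each KO line is a single line with 1 library per condition, the labels do not say how the knockout was made, and the names inside the peak lists number the lines as if they were replicates. The lines are named here as the labels name them. Nothing in the labels says that the WT replicates came from separate cultures, so p-values measure the spread between these libraries, which may be technical.

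The WT lists held 63423 to 87398 peaks over 110 to 183 Mb, those of KO line 1 held 791 to 64530 peaks, and those of KO line 2 held 127 to 13880. Peak lists carry no read counts, so the depth of each library is unknown and cover measures how far peaks were called, not the amount of the mark. Of the myotube markers, Myog, Myh3, Acta1, Ckm and Mybph had no cover at day 0, and their cover was 69.8% to 98.7% in the day 5 control group. Of the myoblast markers, Des had 86.5% and Myod1 52.6% at day 0, whereas Myf5 and Pax7 had 11.9% and 3.88%. Ptprc, Pecam1, Alb, Pou5f1 and Adipoq, markers of blood, endothelial, liver, pluripotent and fat cells, were at 0 in all 5 WT groups. In the restricted day 5 group the cover of the myotube markers was 82.8% for Neb, 57.3% for Myh3, 8.66% for Acta1, 7.53% for Ckm, 1.97% for Mybph and 0 for Myog. Of the myoblast markers in that group, Des had 43.3%, Pax7 1.15%, and Myod1 and Myf5 were at 0. In the day 5 control group Des had 86.8%, Myod1 72.6%, Pax7 2.11% and Myf5 0, so Des and Myod1 did not fall with differentiation. At day 1 Myog, Mybph and Myod1 had 71.9%, 41.3% and 59.0% in control medium and 0 under restriction. Acta1 had 61.0% against 9.91% and Des 84.5% against 37.3%. On both days the restricted group thus differed from its control in most myotube markers and in Des and Myod1, as well as in medium. The part of that difference in the results below was not tested.

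Reference sequence just upstream of annotated starts is shown for 3 genes, because the bodies described below begin there and because Kdm2b has an annotated inner start within its body. The bases are from RefSeq on GRCm38, 5′ to 3′ on the strand of the gene, with capitals marking the GC box (GGGCGG, or CCGCCC on the other strand; matches may overlap). Setd2 is read at chr9:110532347-110532499 (plus strand), Kdm2b outer at chr5:122989271-122989349 and Kdm2b inner at chr5:122900368-122900617 (both minus strand), and Kdm4a at chr4:118180091-118180293 (minus strand).
Setd2: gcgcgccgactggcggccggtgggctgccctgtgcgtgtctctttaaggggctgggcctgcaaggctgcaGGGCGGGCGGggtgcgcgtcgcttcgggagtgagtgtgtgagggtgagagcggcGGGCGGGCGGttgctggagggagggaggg
Kdm2b outer: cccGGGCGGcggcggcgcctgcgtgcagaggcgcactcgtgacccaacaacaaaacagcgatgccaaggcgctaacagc
Kdm2b inner: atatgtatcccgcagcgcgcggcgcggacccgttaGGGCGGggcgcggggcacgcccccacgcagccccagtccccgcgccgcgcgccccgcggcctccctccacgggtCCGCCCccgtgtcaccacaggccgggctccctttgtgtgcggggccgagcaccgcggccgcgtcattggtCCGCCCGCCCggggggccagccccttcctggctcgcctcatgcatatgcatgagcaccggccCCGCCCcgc
Kdm4a: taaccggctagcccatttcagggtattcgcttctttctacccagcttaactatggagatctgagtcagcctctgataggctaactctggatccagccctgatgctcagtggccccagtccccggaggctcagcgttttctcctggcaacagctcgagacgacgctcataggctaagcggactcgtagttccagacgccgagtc

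Over the whole 250 bases upstream of the start, Setd2 had 31 CG pairs and 7 GC box matches, and the inner Kdm2b start had 36 CG pairs and 5 matches. The outer Kdm2b start had 27 CG pairs and 1 match, and Kdm4a had 12 CG pairs and no match. Over all 32851 such windows of the reference the median was 6 CG pairs, and 32.7% held a GC box. Kdm4a and the inner Kdm2b window each held 1 CCAAT box (CCAAT or ATTGG), found in 33.8% of all windows, and none of the 4 windows held TATAAA or TTTATA, found in 12.4%. The reference gave 8 windows for Setd2, Kdm2b, Kdm4a and Kdm4c together. None of the 8 touched a peak in any of the 20 libraries, where 1.64% to 3.48% of all windows did so in the WT libraries. The matches describe letters in these windows and no factor's binding.

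The genes spanned a wide range of cover in WT cells. Averaged over the 10 WT libraries, Kdm4a (chr4:118136957-118180090, 43.1 kb) had the highest cover at 86.4%, more than 98.9% of all 19304 genes. It was followed by Nsd1 (chr13:55209782-55318325) at 77.1%, Setd2 (chr9:110532500-110618633, 86.1 kb) at 65.2% and Kdm2a (chr19:4316144-4398721) at 61.6%. Next came Ash1l (chr3:88950414-89079375) at 60.9%, Nsd3 (chr8:25601601-25719667) at 58.6% and Nsd2 (chr5:33820676-33897966) at 56.6%. The lowest were Kdm4b (chr17:56325970-56403774) at 45.9%, Kdm4c (chr4:74242497-74405864, 163.4 kb) at 25.8% and Kdm2b (chr5:122870664-122989270) at 13.3%. Kdm4a is the shortest and Kdm4c the longest of the 10. A gene that overlaps others of the table shares their peaks, which held for 16% of the Kdm4b body, 9.03% of Kdm2b and 6.75% of Nsd2, and counting only the bases of no other gene moved the means of these 3 to 41.8%, 13.5% and 60.1%.

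At day 0 the libraries of Kdm4a lay above those of Nsd1, whereas from Nsd1 down to Kdm2a the libraries of neighbours in the order overlapped. Kdm4b, Kdm4c and Kdm2b each lay apart from the gene above them at day 0. Kdm2b was lowest in all 5 WT groups, below both libraries of the next gene each time. With the deposited −log10 q required to be at least 3, Kdm4c rather than Kdm2b had the lowest mean over the WT libraries. At day 5 in control medium Nsd1, Kdm4a and Kdm2a were at 89.0%, 88.3% and 86.7%, and their libraries overlapped. At day 1 under restriction Kdm4b was below Kdm4c, at 20.3% and 24.5%, with overlapping libraries, while in the other 4 WT groups it was above it without overlap.

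**Figure D1:**
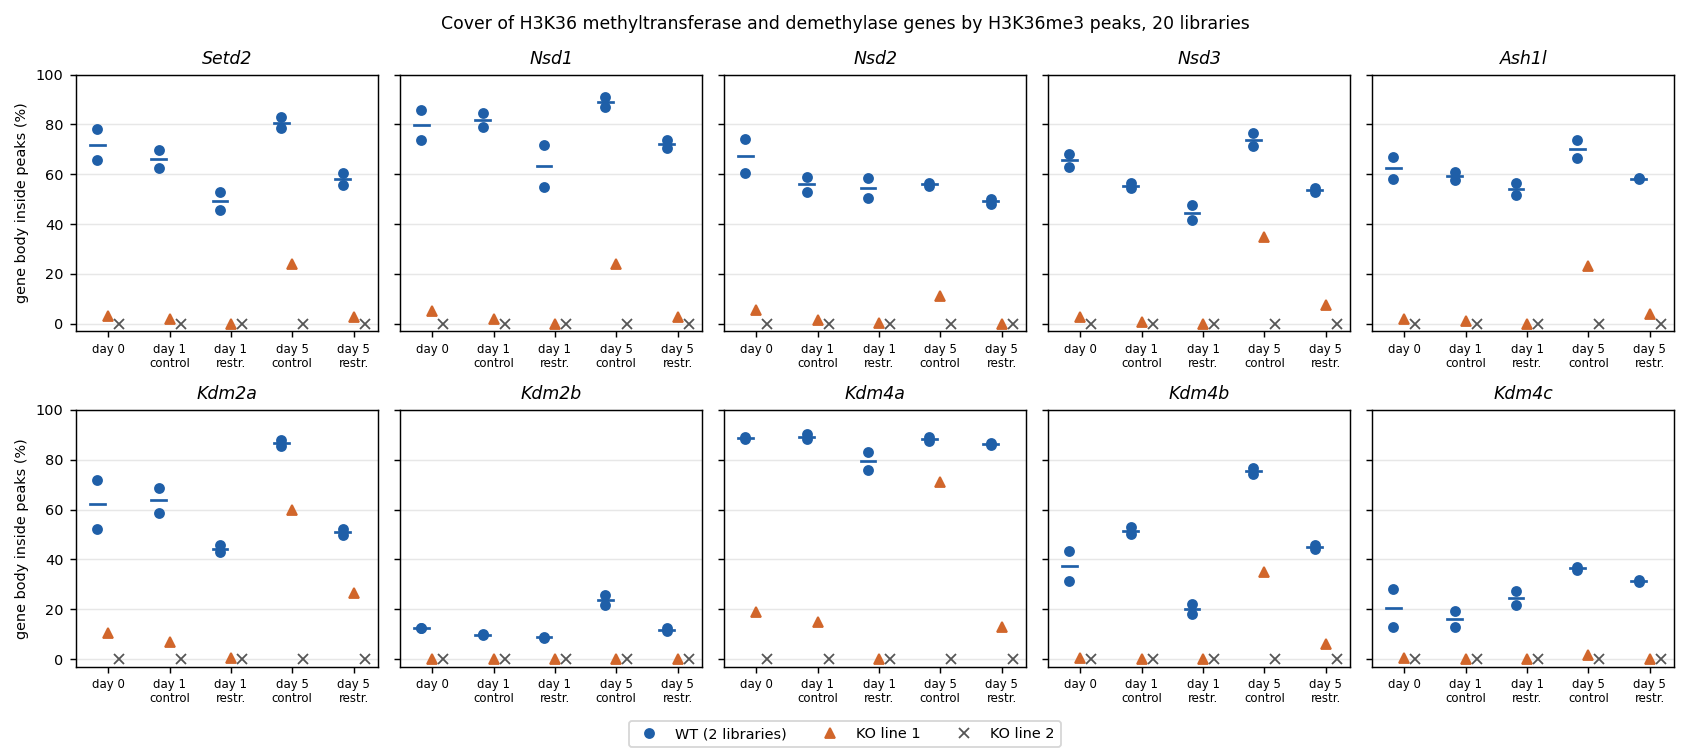
Percent of each gene body inside H3K36me3 peaks (vertical axis) by condition (horizontal axis) in 20 libraries: circles are the 2 WT libraries of a condition with a line at their mean, triangles KO line 1 and crosses KO line 2. Kdm4a stays between 75.8% and 90.1% in WT, Kdm4b runs from 18.3% to 76.7%, and KO line 2 is at 0 except for Kdm4c at day 5 in control medium (0.203%).

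Methionine restriction was compared with control medium within each day in WT cells, with limma fitted across 9514 genes and Benjamini-Hochberg adjustment over all of them. Among the methyltransferase genes Setd2 and Nsd1 were lower under restriction on both days, and Nsd3 at day 5. Among the demethylase genes Kdm2a and Kdm4b were lower on both days, Kdm4a at day 1 and Kdm2b at day 5. In all, 5 of the 10 were called lower at day 1, where 36% of all tested genes were, and 6 of the 10 at day 5, where 41.5% were. No member was called higher, where 2.38% of all genes were at day 1 and 4.32% at day 5. The median difference of the 10 was -10.2 percentage points at day 1 beside -7.99 over all genes, and -14.3 beside -9.16 at day 5. Groups said below not to overlap are 2 libraries against 2, from lists that were shorter under restriction. The share of all tested genes with such separation was not counted, so it adds nothing to the tests.

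These directions are relative to lists that were shorter under restriction throughout: the library medians over tested genes were lower by 15.2 points at day 1 and 16.7 at day 5 (shifts of -15.2 and -16.7). With that shift removed, the median difference over all tested genes was 7.20 points at day 1 and 7.52 at day 5. Centring thus took away more than the difference of the median gene, and centred values are relative to that raised baseline. The called members at day 1 were then Kdm4b, lower, and Nsd2, Ash1l, Kdm2b and Kdm4c, higher. At day 5 they were Kdm2a and Kdm4b, lower, and Kdm4a and Kdm4c, higher. Over all genes the split of higher against lower calls went from 226 and 3422 to 3518 and 1245 at day 1, and from 411 and 3945 to 3757 and 1395 at day 5. With every list instead shortened to the same covered length, the split of higher against lower calls was 677 and 1614 on day 1, against 1285 and 1683 on day 5. Among the members that left Kdm4a lower and Kdm4c higher at day 1, and at day 5 Setd2, Nsd1, Nsd3, Kdm2a and Kdm4b lower and Kdm4c higher. Kdm2a and Kdm4b were called lower at day 5 in all 20 alternatives run, and Kdm4b at day 1 in 19 of 20.

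Setd2, the gene of the enzyme that adds the last methyl group, had 62.4% and 69.9% cover in the day 1 control libraries and 52.8% and 45.6% under restriction. At day 5 the control libraries had 82.8% and 78.4%, and the restricted ones 55.7% and 60.7%. On both days both restricted libraries were below both controls. The difference was -17.0 points (SE 5.21, limma adjusted p = 0.0329, 0.0177 to 0.713 over the alternatives) at day 1 and -22.4 (SE 5.21, adjusted p = 0.00843, 0.00454 to 0.218) at day 5, and it was called in 10 and 16 of 20 alternatives. With centring it was -1.78 and -5.76, called on neither day. Left out singly, either day 1 control, restricted replicate 2 of day 1 or either day 5 control ended the day 1 call (-20.7 to -13.2), and replicate 1 of the day 5 control or of restricted day 5 ended the day 5 call (-25.0 to -19.9).

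Nsd1, a gene for a mono- and dimethylating enzyme, went from 78.8% and 84.4% to 71.7% and 54.9% at day 1. At day 5 it went from 91% and 87.0% to 70.7% and 73.5%. The groups did not overlap on either day, with differences of -18.3 points (SE 5.87, limma adjusted p = 0.0384) and -16.9 (SE 5.87, adjusted p = 0.0447), called in 8 and 11 of 20 alternatives. With centring they were -3.15 and -0.200, neither called (adjusted p = 0.535 and 0.972). The day 1 call was lost without any 1 of 7 libraries, all but those of day 0 and replicate 1 of restricted day 1 (-26.7 to -9.92), and the day 5 call without any 1 of 6, all but those of day 0 and restricted day 1 (-18.9 to -14.9). Nsd3 had 54.5% and 56.4% in control and 47.5% and 41.8% in restricted libraries at day 1, a difference that did not pass (-10.8, SE 3.95, limma adjusted p = 0.0614) but did without restricted replicate 1 (-13.6, adjusted p = 0.0492). At day 5 it had 76.4% and 71.4% against 54.5% and 52.7%, without overlap (-20.3, SE 3.95, limma adjusted p = 0.00362), called in 19 of 20 alternatives and lost with centring (-3.63).

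Nsd2, whose product dimethylates H3K36, did not pass on either day. Its day 1 libraries overlapped, at 52.9% and 59.1% in control and 58.6% and 50.3% under restriction (-1.54, SE 5.28, limma adjusted p = 0.848), and without control replicate 2 or restricted replicate 2 the sign turned (1.58 and 2.58). At day 5 they did not overlap, at 55.4% and 56.6% against 48.2% and 50.2% (-6.86, SE 5.28, adjusted p = 0.321). Ash1l, a trithorax-group methyltransferase gene, likewise did not pass, at -5.003 (SE 4.42, limma adjusted p = 0.409) at day 1 and -11.8 (SE 4.42, adjusted p = 0.059) at day 5. Leaving out 1 library moved the first to between -7.39 and -2.62. The second was called in 5 of 20 alternatives. These were a fit of only the groups compared, gaps of up to 1 kb bridged, eBayes without trend and robust settings, and leaving out either day 0 library. Its restricted libraries were below both controls on each day, at 56.6% and 51.8% against 57.5% and 60.8%, and at 58.3% and 58.2% against 73.7% and 66.4%.

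Of the demethylase genes, Kdm2a had the largest difference of the 10 at day 5. At day 1 its cover was 58.8% and 68.6% in control medium and 45.7% and 42.9% under restriction. At day 5 it was 87.9% and 85.6% against 49.7% and 52.3%. The groups stood apart on both days, by -19.4 points (SE 6.31, limma adjusted p = 0.0407, called in 8 of 20 alternatives and -4.22 with centring) and -35.7 (SE 6.31, adjusted p = 0.00226). The day 1 call was lost without any 1 of 8 libraries, all but those of day 0 (-24.3 to -14.5).

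Kdm4b had the largest difference at day 1. Its cover there was 53.2% and 50.01% in control medium and 22.2% and 18.3% under restriction. At day 5 it was 76.7% and 74.1% against 44.1% and 45.6%. These were differences of -31.3 points (SE 4.66, limma adjusted p = 0.00122) and -30.5 (SE 4.66, adjusted p = 0.00106), each far wider than the gap between replicates. With lists of equal length the day 1 difference was -20.5 and not called (adjusted p = 0.0708). At day 1, 11% of tested genes had a more negative difference, and at day 5 13.6% did, so many genes outside the list moved further.

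Kdm2b and Kdm4a each passed on a single day. Kdm2b was at 9.93% and 9.62% in control and 9.03% and 8.40% under restriction at day 1 (-1.06, SE 2.18, limma adjusted p = 0.736). At day 5 it was at 25.7% and 21.6% against 12.6% and 11.1% (-11.8, SE 2.18, adjusted p = 0.00271). That call was lost with the deposited −log10 q required to be at least 3 (-3.44), and the sign turned with lists of equal length (1.01) and with centring (4.85). Kdm4a was at 90.1% and 88.2% against 83.2% and 75.8% at day 1 (-9.68, SE 2.60, limma adjusted p = 0.0192), and at 87.6% and 88.9% against 86.8% and 85.9% at day 5 (-1.97, SE 2.60, adjusted p = 0.573). The groups of Kdm4a and of Kdm2b did not overlap on either day. The day 1 call of Kdm4a was lost without either control library or without replicate 2 of the restricted group (-13.4 to -5.96), and centring on the library median turned it to 5.51. It was also lost with the q minimum, without the filter on mean cover and in a fit of only the groups compared (adjusted p = 0.0548, 0.0978 and 0.0842).

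Kdm4c did not pass on either day. At day 1 it had 12.7% and 19.4% in control and 27.2% and 21.9% under restriction, with both restricted libraries higher (8.46, SE 5.14, limma adjusted p = 0.231, 5.10 to 11.8 with 1 library left out). At day 5 it had 37.0% and 35.9% in control and 31.7% and 31.1% under restriction, with both lower (-5.06, SE 5.14, adjusted p = 0.456). The day 5 sign turned with the q minimum (7.15), with lists of equal length (10.3) and with centring (11.6). No member passed limma's test of the difference between the days, where 5.2% of all genes did, and 1 member, Kdm2b, had an unadjusted p under 0.05. Its difference between the days was -10.8 points (SE 3.08, adjusted p = 0.088), and passed without replicate 2 of the day 5 control (-12.8, adjusted p = 0.0498). That of Kdm2a was -16.3 (SE 8.92, limma adjusted p = 0.358).

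**Figure D2:**
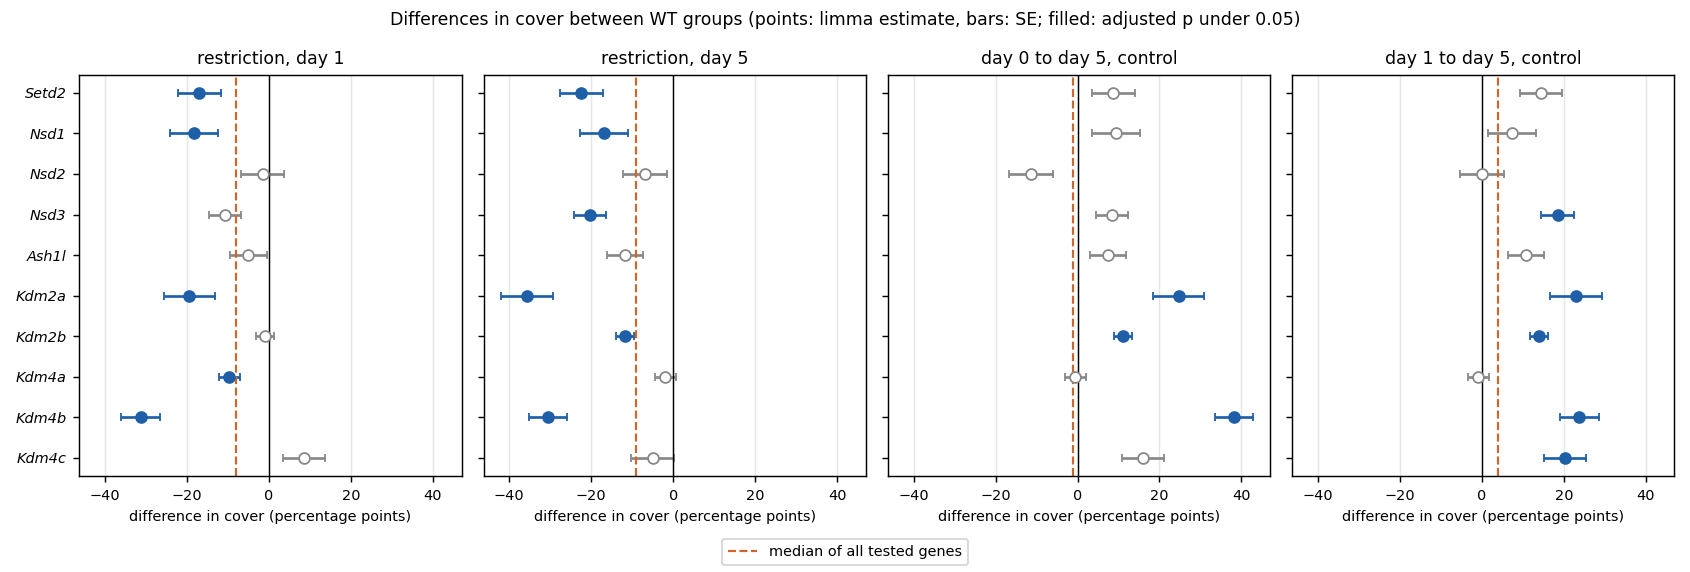
Difference in cover between WT groups in percentage points (horizontal axis, points with SE bars from limma) for the 10 genes in 4 comparisons; filled points passed an adjusted p of 0.05 and the dashed line is the median of the 9514 tested genes. Under restriction the called members lie at or left of a dashed line that is itself at -7.99 and -9.16, and with the shift between library medians removed Kdm4a at day 1 and Kdm2b at day 5 change sign.

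Along the bodies, the difference between media was uneven. The stretches described were chosen after the profiles were seen and were not tested. Positions run from the 5′ end for Setd2, Kdm2b, Kdm4a and Kdm4c, whose strand the reference gives, and from the lower coordinate for the others. In Nsd1 the first 5% of the body had 29.1% to 34.8% cover in the 6 day 0 and control libraries and 0 in all 4 restricted ones. In Nsd3 the first 20% had 7.97% to 40.5% in the 6 and 0 in the 4, while its last 50% had 82.1% to 95.9% and 73.6% to 89.4%. In Setd2 the first 15% had 0 to 22.9% in the 6 libraries, and was at 0 in 3 restricted libraries and 3.51% in the other.

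In the demethylase genes other stretches stood out. In Kdm2a the first 20% held 91.7% to 95.4% in the 6 day 0 and control libraries and 77.9% to 85.1% under restriction. Its last 40% differed by more: 31.6% and 47.4% in the day 1 controls stood against 12.2% and 8.38%, and 83.2% and 77.6% at day 5 against 14.3% and 18.5%. In Kdm4a the last 10%, its 3′ end, had 56.0% to 75.1% in the 6 libraries and 14.1% to 31.4% in the 4. The middle of Kdm4a, from 5% to 90% of its length, was at 95.9% to 97.8% in the 6 and 87.5% to 99.1% in the 4. In Kdm4b the middle stretch from 30% to 75% had 64.3% and 58.9% in the day 1 controls against 20.7% and 11.6%, and 94.7% and 92.5% at day 5 against 51.2% and 55.3%.

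Kdm4c and Kdm2b had patterns of their own. The downstream 50% of Kdm4c had 16.2% and 26.2% in the day 1 controls and 43.9% and 36.9% under restriction, with both restricted libraries higher. Its 10% to 50% stretch had 11.5% and 15.9% against 13.2% and 8.61%, with overlap. At day 5 the downstream 50% had 49.9% and 48.1% in control medium and 53.8% and 51.1% under restriction, again with both restricted libraries higher. The 10% to 50% stretch had 30% and 29.7% against 12% and 13.8% at day 5, lower under restriction without overlap. Its first 10% had no peak in any of the 10 WT libraries. In Kdm2b the last 10% held 59.5% to 83.3% in all 10 WT libraries, while the stretch from 50% to 90% had 0 to 5.05%. The inner start shown above lies 88.9 kb, or 75.0%, into the body, upstream of that covered end. The first 50% of Kdm2b had 31.2% and 22.5% at day 5 in control medium and 3.76% to 9.89% in the other 8 WT libraries, a stretch that lies upstream of the inner start.

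**Figure D3:**
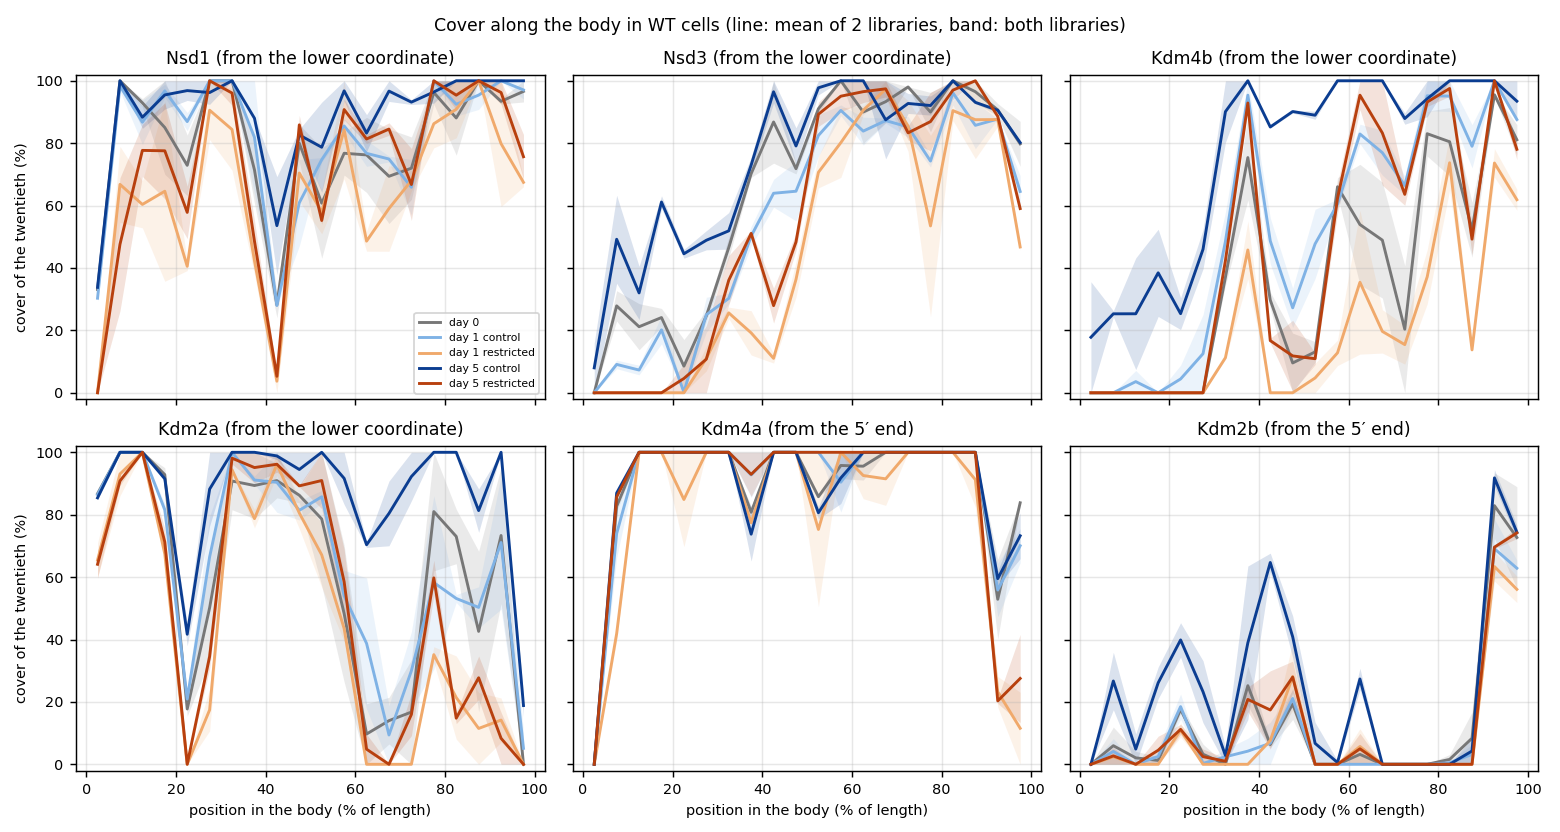
Cover of each twentieth of the body (vertical axis, percent) by position (horizontal axis, percent of body length) for 6 genes in WT cells; lines are means of 2 libraries and bands span both. Under restriction the lines are at 0 over the first 20% of Nsd3 and the first 5% of Nsd1, low over the last part of Kdm2a and Kdm4a, and Kdm2b is covered mainly in its last 10%.

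Differentiation was followed in control medium. From day 0 to day 1 no member passed limma's test, where 6.63% of all genes did; 2 had an unadjusted p under 0.05, Nsd3 at -10.1 points (SE 3.95, adjusted p = 0.159) and Kdm4b at 14.3 (SE 4.66, adjusted p = 0.104). Without replicate 2 of day 0 that of Kdm4b was 20.3 and passed (adjusted p = 0.0337), and without replicate 1 it was 8.26. From day 0 to day 5, 3 of the 10 rose, all demethylase genes, where 12.2% of all genes rose, and none fell, where 15.6% did. From day 1 to day 5, 5 rose, where 17.1% of all genes did, and none fell, where 5.95% did. The median difference of the members was 9.06 points from day 0 to day 5 beside -1.17 over all genes, and 14.2 beside 3.89 from day 1 to day 5.

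Kdm4b rose most. It had 31.3% and 43.3% at day 0, 53.2% and 50.01% at day 1 and 76.7% and 74.1% at day 5, and no library of one day overlapped another day's. The difference from day 0 to day 5 was 38.1 points (SE 4.66, limma adjusted p = 0.000443), called in all 20 alternatives, and from day 1 to day 5 it was 23.8 (SE 4.66, adjusted p = 0.00717). In its first 30% the cover was 0 at day 0 and 30.3% and 29.1% at day 5.

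Kdm2a had 71.9% and 52.3% at day 0, 58.8% and 68.6% at day 1 and 87.9% and 85.6% at day 5, above all earlier libraries. It was higher at day 5 than at day 0 by 24.6 points (SE 6.31, limma adjusted p = 0.02) and than at day 1 by 23.0 (SE 6.31, adjusted p = 0.0318). The second call was lost with gaps of up to 1 kb bridged. Leaving out replicate 2 of day 0, or either day 5 control library, ended the first call (14.8 to 34.5 points, adjusted p up to 0.105), as did a fit of only the groups compared (adjusted p = 0.0884). Kdm2b rose from 12.6% and 12.4% at day 0, and 9.93% and 9.62% at day 1, to 25.7% and 21.6%. These were differences of 11.2 points (SE 2.18, limma adjusted p = 0.00549) and 13.9 (SE 2.18, adjusted p = 0.00241), smaller in points but from a low level. With lists of equal length neither was called (0.686 and 1.52 points, adjusted p = 0.852 and 0.673), nor with the deposited −log10 q required to be at least 3 (2.54 and 5.70, adjusted p = 0.433 and 0.102). The first was not called in a fit of only the groups compared (adjusted p = 0.0768), and the second was 7.78 and not called with centring (adjusted p = 0.0869).

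Kdm4c, whose day 0 libraries were far apart at 28.3% and 12.8%, reached 37.0% and 35.9% at day 5. The difference from day 0 was 15.9 points (SE 5.14, limma adjusted p = 0.0505) and did not pass, while that from day 1 was 20.4 (SE 5.14, adjusted p = 0.0228) and did. Without replicate 1 of day 0 the former was 23.7 and passed (adjusted p = 0.00555), and without replicate 2 it was 8.19. With the q minimum the difference from day 1 was 7.90 and with lists of equal length 7.63, neither called (adjusted p = 0.0649 and 0.055). Nsd3 rose from 54.5% and 56.4% at day 1 to 76.4% and 71.4% at day 5 (18.5, SE 3.95, limma adjusted p = 0.0108). Setd2, at 78.1% and 65.6% at day 0, did not pass from day 0 to day 5 (8.77, SE 5.21, limma adjusted p = 0.264) or from day 1 to day 5 (14.4, SE 5.21, adjusted p = 0.0823). The first was 14.99 without replicate 1 of day 0 and 2.55 without replicate 2, and the second passed without either of these (adjusted p = 0.0454 and 0.0448). Nsd2 had its highest values at day 0, 74.1% and 60.6%, both above both day 5 control libraries, without passing (-11.3, SE 5.28, limma adjusted p = 0.156). Without replicate 1 of day 0 this was -4.62, and without replicate 2 it was -18.0 and passed (adjusted p = 0.0403). From day 1 to day 5, leaving out replicate 1 of the day 5 control ended the calls of Nsd3, Kdm2a, Kdm4b and Kdm4c, and replicate 1 of the day 1 control those of Nsd3, Kdm2a and Kdm4c. Replicate 2 of the day 5 control also decided Kdm2a and Kdm4c, and either restricted day 5 library Kdm2a. The values then ran from 16.01 to 21.0 for Nsd3, 18.1 to 28.0 for Kdm2a, 22.3 to 25.4 for Kdm4b and 17.01 to 23.7 for Kdm4c.

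The KO lines were compared with WT by an exact permutation test, two-sided, with labels permuted within condition. All 10 members had lower cover in the KO lines, in 5 of 5 conditions below both WT libraries. Of the 9514 tested genes 96.6% were called lower, and these genes had been kept for their cover in WT and so were chosen on one side of this comparison. Without that filter 9919 of 19304 genes were called. The count of members says nothing particular to them. The mean difference, WT minus KO, ran from 13.3 points for Kdm2b to 74.6 for Kdm4a, each with permutation p = 0.000257, the smallest that the permutations can give (adjusted p = 0.000341). The 5 libraries of a KO line come from 1 line and are not independent, which this p does not reflect. The KO lists were also far shorter than those of WT. With each WT list cut to the covered length of KO line 1 in its condition, 0 of 8 members tested passed this exact permutation test (2 had an unadjusted p under 0.05; adjusted p = 0.126 to 0.276), and 200 of 4533 genes did. The mean of Setd2 was then 19.2% in WT beside 6.39% in KO line 1, with WT above KO line 1 in 3 of 5 conditions, and that of Kdm2a was 21.6% beside 20.9%, also in 3 of 5. Over the 10 members WT was above KO line 1 in 2 or 3 of the 5 conditions. The cut takes the difference in list length to KO line 1 out of the comparison, so it cannot test that difference. The KO mean in the test still includes KO line 2, whose lists were shorter again. At day 1 under restriction the WT lists were cut to 0.307 Mb, which leaves little cover to compare.

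KO line 2 had no peak over 9 of the 10 bodies in any of its 5 libraries. The exception was 1 peak over Kdm4c at day 5 in control medium, 0.203% of the body. Among the tested genes with cover in WT, 0.267% to 13.7% had a peak in a library of KO line 2, the highest share at day 5 in control medium. KO line 1 kept more: 9 members had a peak at day 0, 7 at day 1 in control medium, 2 at day 1 under restriction, 10 at day 5 in control medium and 7 at day 5 under restriction. The 10 include Kdm2b, of which only 5 bases at the 3′ edge of the body lay inside a peak. Of the tested genes with cover in WT, 52.5%, 64.1%, 97.4%, 27.7% and 49.4% had no peak in these libraries, in the same order. Its lists covered 10.5%, 9.55%, 0.258%, 41.8% and 34.5% of the WT length in these conditions.

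Within KO line 1 the members kept unequal shares of their WT cover. The median share was 4.34% at day 0, 2.22% at day 1 in control medium, 0 at day 1 under restriction, 31.4% at day 5 in control medium and 5.59% at day 5 under restriction. Over the tested genes with cover in WT the medians were 0, 0, 0, 19.7% and 0.892%. Those genes were not matched to the members in WT cover. The median of the members' WT means was 59.7%, while tested genes were kept from 5% up. At day 5 in control medium the lowest shares were those of Kdm2b (0.0178%) and Kdm4c (5.07%), the members with least WT cover. Kdm4a at day 5 in control medium had 71.1% cover, 80.5% of its WT level, and Kdm2a 59.99%, 69.2% of its WT level. Kdm2a also kept 26.6% at day 5 under restriction, 52.1% of WT. Its peaks at day 0 lay only in the first 20% of the body, 51.9% of which was covered. At the other end, Kdm2b had no peak in 4 libraries and 0.00422% of its body covered in the other, and Kdm4c had at most 1.85%. These values come from 1 library each, without replicate.

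Setd2 itself, the gene named in the KO label, was mapped in every library. In KO line 1 it had 6 peaks at day 0 (3.16% cover), 3 at day 1 in control medium (2.07%), none at day 1 under restriction, 27 at day 5 in control medium (24.0%) and 6 at day 5 under restriction (2.67%). In KO line 2 it had none in any of the 5. The WT libraries had 12 to 33 peaks over the same body, with a longest peak of 4.75 to 21.4 kb. The longest in KO line 1 was 2.40 kb, at day 5 in control medium, so the remaining peaks were short pieces. At least 99.8% of their bases fell within peaks of the matching WT libraries, which together covered 82.2%, 77.4%, 86.1% and 68.3% of the body in these 4 conditions, so most of that overlap follows from the WT cover alone. The files hold no measure of the SETD2 protein or transcript, and a peak over the gene does not check the label.

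The pieces recurred at a few places. A segment of 445 bases from 61.37 to 61.81 kb from the 5′ end was inside peaks of all 4 KO line 1 libraries that had any. The segments from 60.44 to 60.64 kb and from 82.00 to 82.32 kb were inside peaks of 3 of the 4. None of the 4 libraries had a peak within 5 kb of the 5′ end, and the first began at 5.12 kb, at day 5 in control medium; WT peaks began at 2.13 to 14.8 kb. At day 5 in control medium the first 15% of the body held 2.23% cover, the stretch from 15% to 50% held 31%, that from 50% to 65% held 5.23% and the last 35% held 34.5%. The authors' fold enrichment of the 27 peaks at day 5 ran from 2.49 to 4.11, and the highest exceeded 97.7% of that library's peaks. With the deposited −log10 q required to be at least 3, peaks remained in 2 libraries, at 6.13% cover at day 5 in control medium and 0.332% at day 5 under restriction.

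**Figure D4:**
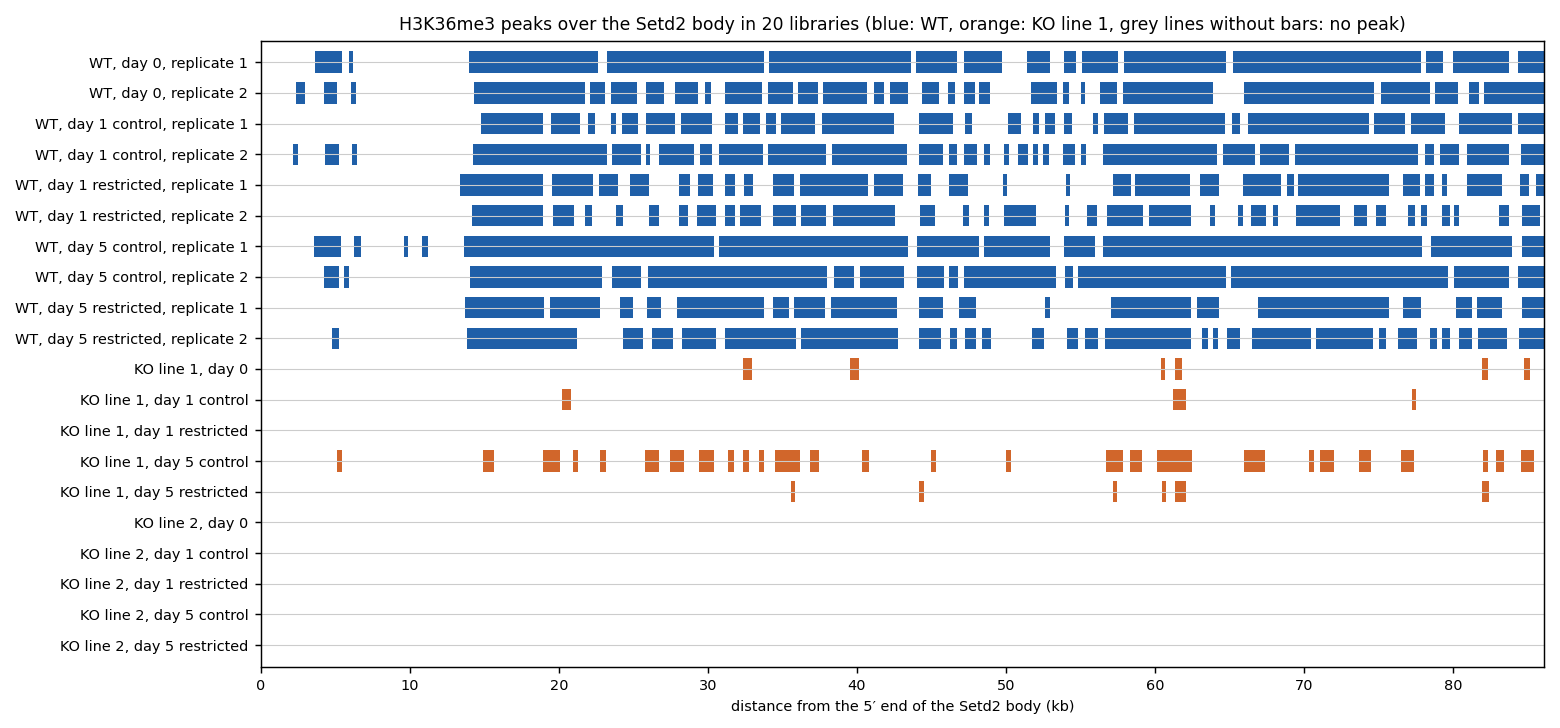
H3K36me3 peaks (bars) over the Setd2 body in 20 libraries (rows), by distance from its 5′ end in kb (horizontal axis); blue is WT, orange KO line 1, and rows without bars had no peak. Peaks of KO line 1 are short and recur near 61.37 to 61.81 kb, and KO line 2 has none.

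Genes of the same machinery and like genes were described from 3 lists. Of 17 tested genes for SETD2 recruitment and transcription elongation, 5 were lower under restriction at day 1 and 5 at day 5, and none was higher on either day. Among all tested genes, 36% were called lower and 2.38% higher at day 1, and 41.5% lower and 4.32% higher at day 5. The most negative called differences were those of Hnrnpl, an RNA-binding partner of SETD2, at day 1 (-35.9, SE 3.14, limma adjusted p = 0.0001) and of Ccnt1, the cyclin of P-TEFb, at day 5 (-28.9, SE 3.76, adjusted p = 0.000474). Of 14 tested genes for other H3K36 enzymes and complex partners, 5 were lower and 1 higher at day 1, and 4 lower and 1 higher at day 5. Rbbp4, a histone chaperone of several complexes, had -35.6 and -36.4 points (SE 3.45, limma adjusted p = 0.000156 and 0.0001). Riox2, a JmjC-domain oxygenase gene, was the one that rose, by 14.5 and 27.7 points (SE 3.46, adjusted p = 0.0115 and 0.000367), though without replicate 1 of the day 1 control or replicate 2 of restricted day 1 the first was not called (11.5 to 17.4), nor with gaps of up to 1 kb bridged (3.28). Of 34 tested genes for methyltransferases and demethylases of other histone lysines, 9 were lower and 1 higher at day 1, and 10 lower and 1 higher at day 5. Kdm1a, the H3K4 demethylase LSD1, had -27.0 and -36.4 points (SE 4.83, limma adjusted p = 0.00301 and 0.000524). The higher gene at day 1 was Setdb2, of the SETDB family of methyltransferases (19.02, SE 6.35, limma adjusted p = 0.0448), a call lost without any 1 of the 8 libraries outside day 0 (16.6 to 21.4). That at day 5 was Suv39h1, an H3K9 methyltransferase gene (32.1, SE 7.40, adjusted p = 0.00819), a call lost without replicate 2 of the day 5 control or replicate 1 of restricted day 5 (27.0 to 37.2) and with the q minimum (8.30). The list medians at day 5 were -8.73, -10.6 and -7.15 points beside -9.16 over all genes. All of the named differences kept their sign with centring and with lists of equal length, and the call of Ccnt1 was lost with the latter (-26.3, adjusted p = 0.0563).

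From day 0 to day 5 in control medium, 1 of the 17 recruitment and elongation genes fell, Polr2a, the largest subunit of RNA polymerase II (-14.1, SE 4.01, limma adjusted p = 0.0305), and none rose. That call was lost without replicate 1 of day 0, replicate 1 of the day 5 control or either restricted day 5 library (-18.3 to -9.93), and with centring (-11.7). Of the 14 partners 3 fell and none rose, with Smyd2 lowest (-42.6, SE 4.26, adjusted p = 0.000129). Of the 34 genes for enzymes of other lysines 5 rose and 3 fell, where 12.2% of all tested genes rose and 15.6% fell. Kdm7a, a JmjC demethylase gene, rose by 36.2 points (SE 3.23, limma adjusted p = 6.97e-05) and Suv39h1 went down (-64.5, SE 7.40, adjusted p = 0.000318). The list medians were -0.480, -3.16 and -0.690 points, against 9.06 for the 10 H3K36 genes; the difference between lists was not tested.

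The genes whose cover was most like that of a member over all 20 libraries were found by the mean absolute difference in percentage points. For Setd2 they were Mark3 at 1.6, Stom at 1.8 and Top1 at 2.08. For Ash1l they were Add1 at 1.29, Naa15 at 1.34 and Ddr1 at 1.55, and for Kdm4a Nup88 at 1.62, Flii at 2.18 and Srp72 at 2.30. Kdm4b had no close counterpart by this measure: its nearest were Stac3 at 3.94, Usp20 at 3.96 and Ube2h at 4.02. The lowest distances, 0.826 for Kdm4c (Ap5m1) and 0.854 for Kdm2b (Mapkap1), belong to members with little cover, where small differences are easier to reach.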

How the data were processed

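Each of 20 libraries came as a list of broad H3K36me3 peaks that the authors called per library; the input library was not used here. The build is GRCm38, per the submitters' processing notes, while the aligner, peak caller, control and any use of the spike-in are not given in the sources used here. The fold enrichment (a ratio), the −log10 p and q, and the score of each peak are the authors' deposited values; fold and −log10 q were used only to describe, rank or filter peaks within a list, and the score was not used.

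Overlapping peaks of a library were merged, and the percent of each RefSeq gene body (GRCm38) inside them was computed for the 19304 genes of the protein-coding class that span 2 kb or more. WT groups were compared on this percent with limma 3.58.1 (R 4.3.3; lmFit, eBayes with trend and robust settings; 5 groups sharing an estimate of the spread) over genes whose WT mean was 5% or more, and called under a Benjamini-Hochberg adjusted p of 0.05. KO lines were compared by the exact permutation test in Python 3.11.15 (numpy 2.4.6, pandas 2.3.3). The steps were tested on simulated data. A longer list can give more cover to all genes, so alternatives removed the library median or equalised list length. Depth is unknown and no interval is given. All 10 genes are named, with up to 3 most similar genes each and, from the 3 context lists, the largest called change in a direction. The 10 genes and the lists were chosen with earlier results of these data known. RefSeq upstream sequences were found for Setd2, Kdm2b, Kdm4a and Kdm4c. Alternatives were peak q, bridged gaps, equal list lengths, centring, the cover filter, the groups in the fit, bases of no other gene, eBayes settings, a replicate block and leaving out each library.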

Additional observations from a re-analysis of the deposited data

Results flagged for a closer look

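In Kdm4c both restricted libraries were above both controls at day 1 and below both at day 5, and neither day's difference passed limma's test. The difference between the days was -13.5 percentage points (SE 7.27) and did not pass limma's interaction test (adjusted p = 0.35, 0.152 to 0.635 over the alternatives). With peaks of a −log10 q of at least 3 it was 5.54, of the opposite sign. The opposite directions were absent with lists of equal length (13.9 at day 1 and 10.3 at day 5) and with centring (23.6 and 11.6), where Kdm4c was called higher on both days.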

How the results depend on the processing

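Depth is unknown, so a short list and a shallow library cannot be told apart. Of 1316 values of single genes under the alternatives, 1160 kept their direction and side of the threshold, 115 lost the call, 19 gained one and 22 reversed. Members called at day 1 of restriction numbered 3 with a −log10 q of at least 3, 2 with lists of equal length, 1 without the filter on cover and 2 with only the groups compared, against 5. Over all genes these settings called 2709 of 8181, 2291 of 8329, 2993 of 19304 and 3167 of 9514, against 3648 of 9514. From day 0 to day 5, 6 members were called with centring and 1 with only the groups compared, against 3. Over all 9514 genes these calls numbered 2913 and 1617, against 2641. From day 1 to day 5, 3 members were called with the q minimum and 3 with equal lengths, against 5. Over all genes the calls were 1296 of 8181 and 1470 of 8329, against 2193 of 9514. In the KO comparison 0 of 8 members passed with shortened WT lists, against 10, where 200 of 4533 genes did, against 9191 of 9514. The median over members of the mean WT cover was 51.3% with the q minimum and 65.7% with gaps of up to 1 kb bridged, against 59.7%, and Setd2 had peaks in 2 KO libraries with the q minimum, against 4.

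Reversed differences at day 1 were, with the q minimum, 0.862 for Kdm2b; with equal lengths, 5.11 for Nsd2, 0.216 for Ash1l and 2.44 for Kdm2b; with centring, 13.6 for Nsd2, 4.41 for Nsd3, 10.2 for Ash1l, 14.1 for Kdm2b and 5.51 for Kdm4a. At day 5 they were, with the q minimum, 1.199 for Nsd2 and 7.15 for Kdm4c; with equal lengths, 4.81 for Nsd2, 1.01 for Kdm2b and 10.3 for Kdm4c; with centring, 9.81 for Nsd2, 4.92 for Ash1l, 4.85 for Kdm2b, 14.7 for Kdm4a and 11.6 for Kdm4c. The difference of Kdm4c between the days was 5.54 with the q minimum. The cause was not tested.

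Leaving out 1 library at a time gave 1 to 5 members at day 1 of restriction (1 without either day 1 control or without restricted replicate 2), 4 to 7 at day 5, 0 to 1 for the difference between days, 0 to 1 from day 0 to day 1, 2 to 4 from day 0 to day 5, 1 to 6 from day 1 to day 5 and 10 in each KO run. Nsd2 at day 1 of restriction ran from -5.66 to 2.58. Where a group was left with 1 library, it is assumed to vary like the others. Deviations of replicates with the same number correlated at -0.0834 to 0.0614 between groups, except at -0.439 between day 0 and the day 1 control. In that pair replicate 1 of day 0 thus tended to deviate like replicate 2 of the day 1 control. A block by replicate number does not take this up. With the replicate block 4 members were called at day 1 of restriction, Kdm2a being lost, as was the context gene Setdb2 (limma adjusted p = 0.061). At day 5 of restriction there were 6, from day 0 to day 5 there were 3, from day 1 to day 5 there were 5, and 0 in the other contrasts. Over all 9514 genes the block gave 3436, 4176, 2457 and 1988 calls in the first 4 of these, against 3648, 4356, 2641 and 2193.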
